A study of Mus musculus with 60 samples.

Results

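The 10 mouse genes for the pore-forming subunit of the voltage-gated calcium channels (Cacna1a, Cacna1b, Cacna1c, Cacna1d, Cacna1e, Cacna1f, Cacna1g, Cacna1h, Cacna1i and Cacna1s) were followed through 16 chromatin peak lists from dorsal root ganglia. They were taken by name out of 21887 protein-coding genes, and all 10 were found in the RefSeq gene table of GRCm38.p6. A peak was assigned to a gene when it touched the gene body or the 10 kb on either side. The C57BL/6 mice were 6 to 8 weeks old, and L4-L6 ganglia were taken 24 hours after surgery. SNA was a cut of the sciatic nerve and Sham its mock operation, while DCA cut the dorsal columns, the ascending touch tracts of the cord, and Lam opened the vertebral arch without cutting the cord. For each surgery, each of H3K9ac, H3K27ac and H3K27me3 had 2 immunoprecipitated samples and 2 inputs, each pooling 10 mice, and ATAC had 3 samples of 1 mouse each. The labels name no transgene, and all groups carried a surgery.

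A voltage-gated calcium channel opens when the membrane depolarises and lets calcium into the cell, where it triggers transmitter release, changes firing and acts on gene expression. The pore subunit sets the class. L-type channels open at strong depolarisation and stay open for long, P/Q-, N- and R-type channels feed transmitter release at presynaptic terminals, and T-type channels open briefly near the resting potential. In sensory neurons of the ganglia, the N-type channel encoded by Cacna1b carries much of the calcium that releases transmitter in the spinal cord, and the T-type channel encoded by Cacna1h shapes excitability. Acetylation of histone H3 (H3K9ac, H3K27ac) is found at active promoters and enhancers, H3K27me3 in chromatin held silent by Polycomb proteins, and ATAC marks DNA that a transposase can reach.

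Each list pooled all samples of an assay and surgery, so no value below has a replicate error and no difference was tested. Intervals on shares and ratios are exact 95% intervals that cover counting error only, and peaks of 1 gene are not independent. The lists are parts of longer ranked lists, so a missing peak does not show a missing signal. The lists held between 43803 and 89647 peaks for the 2 acetylation marks, between 90011 and 154055 for H3K27me3 and between 153556 and 174605 for ATAC. Read totals are unknown. The fold of a peak over background, its −log10 p and its −log10 q (the same after adjustment for many peaks) are the authors' values, larger for stronger peaks, and describe a peak within its own list, so values side by side from several lists show no change. Where 4 values stand without names, their order is Sham, SNA, Lam, DCA. In bulk ganglia, fewer cells of a type and less signal per cell cannot be told apart. At gene ends, 69.4% to 71.2% of all genes had an ATAC peak and 49.1% to 59.3% an H3K9ac peak, depending on the list. There the 12 sensory neuron markers had an ATAC peak for 12 of 12 in all 4 lists, but an H3K9ac peak for 1 to 3. The 10 satellite glia and Schwann cell markers had an H3K9ac peak for 7 to 9, so acetylation in these lists was recorded more at glial than at neuronal markers. Glia were not alone in this, as the 4 endothelial markers had an H3K9ac peak for 3 to 4 and the 4 fibroblast markers for 2 to 3. The 6 macrophage markers had one for 0 to 3. The 8 skeletal muscle markers had an H3K9ac peak for 1 to 3 and the 6 photoreceptor markers for 1 to 2, which bears on Cacna1s, the pore of skeletal muscle, and Cacna1f, the pore of photoreceptor terminals. What share of the signal at the pore genes came from each cell type was not tested.

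Start sites show which promoters of the family carried acetylation. RefSeq promoter windows, 250 bases before to 50 bases after a start, were given for 7 of the 10 genes and 10 starts. Printed below, 5' to 3' on the gene's strand (GRCm38), are all starts of Cacna1c and Cacna1d, because 1 start of each gene held acetylation peaks and the others did not, and the start of Cacna1b, which was accessible in every list without acetylation. Capitals mark matches on either strand, which run together where they overlap. They mark the GC box, known as the site of Sp proteins and searched as GGGCGG. They mark the E-box, searched in the form CAGCTG that helix-loop-helix proteins bind. They also mark the TATA box, searched as TATAAA, and the CCAAT box by the letters of its name.
Cacna1c start 1, chr6:119196360-119196659, minus strand: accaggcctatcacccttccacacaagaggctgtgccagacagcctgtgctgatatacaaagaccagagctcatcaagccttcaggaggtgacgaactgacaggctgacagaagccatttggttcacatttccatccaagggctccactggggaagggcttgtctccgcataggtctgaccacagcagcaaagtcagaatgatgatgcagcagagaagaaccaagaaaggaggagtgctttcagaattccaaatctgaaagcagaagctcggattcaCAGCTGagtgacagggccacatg
Cacna1c start 2, chr6:119108446-119108745, minus strand: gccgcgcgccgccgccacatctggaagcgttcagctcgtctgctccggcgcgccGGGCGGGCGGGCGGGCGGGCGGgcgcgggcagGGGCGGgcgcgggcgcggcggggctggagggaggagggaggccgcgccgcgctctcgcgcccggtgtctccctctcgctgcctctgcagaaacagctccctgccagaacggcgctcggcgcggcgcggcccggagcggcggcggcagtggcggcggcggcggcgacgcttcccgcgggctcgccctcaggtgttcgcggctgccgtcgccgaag
Cacna1c start 3, chr6:118757925-118758224, minus strand: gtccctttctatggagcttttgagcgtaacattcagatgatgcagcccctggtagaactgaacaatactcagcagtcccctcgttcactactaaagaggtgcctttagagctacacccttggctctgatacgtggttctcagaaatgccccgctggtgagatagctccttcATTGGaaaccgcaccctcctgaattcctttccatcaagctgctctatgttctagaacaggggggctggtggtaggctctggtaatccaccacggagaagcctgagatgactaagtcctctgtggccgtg
Cacna1d start 1, chr14:30491107-30491406, minus strand: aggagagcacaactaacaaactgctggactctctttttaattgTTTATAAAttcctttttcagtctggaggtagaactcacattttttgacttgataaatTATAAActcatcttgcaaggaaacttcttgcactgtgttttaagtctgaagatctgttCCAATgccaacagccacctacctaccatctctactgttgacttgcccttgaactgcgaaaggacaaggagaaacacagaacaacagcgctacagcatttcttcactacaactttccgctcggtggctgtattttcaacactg
Cacna1d start 2, chr14:30353437-30353736, minus strand: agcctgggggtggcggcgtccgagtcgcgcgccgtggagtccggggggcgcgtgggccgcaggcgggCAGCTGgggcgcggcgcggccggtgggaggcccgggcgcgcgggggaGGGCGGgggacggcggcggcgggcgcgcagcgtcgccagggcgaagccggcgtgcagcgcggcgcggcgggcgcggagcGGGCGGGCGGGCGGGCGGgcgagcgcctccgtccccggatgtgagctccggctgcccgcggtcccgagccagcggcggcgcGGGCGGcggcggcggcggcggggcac
Cacna1b start 1, chr2:24763103-24763402, minus strand: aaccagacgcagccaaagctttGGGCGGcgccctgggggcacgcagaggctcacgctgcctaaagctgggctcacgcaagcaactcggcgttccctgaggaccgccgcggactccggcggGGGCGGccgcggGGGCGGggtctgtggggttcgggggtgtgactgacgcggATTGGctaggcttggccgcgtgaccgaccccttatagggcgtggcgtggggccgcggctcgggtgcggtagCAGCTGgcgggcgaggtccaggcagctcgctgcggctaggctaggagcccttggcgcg

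Start 2 of Cacna1c and start 2 of Cacna1d were the most CG-rich windows of the family, with 57 and 63 CG pairs against a median of 13 over 21263 promoters, and each held 6 GC boxes, in part as overlapping repeats. The other starts of these genes held 3 (Cacna1c start 1), 7 (Cacna1c start 3) and 4 (Cacna1d start 1) CG pairs and no GC box. The Cacna1b window held 35 CG pairs, 3 GC boxes, an E-box and a CCAAT box. Among all promoters of the same length, a GC box was present in 46.2%, a CCAAT box in 38.2%, an E-box in 15.6% and a TATA box in 12.6%. The letters of the AP-1 motif (TGANTCA, in 6.99% of all promoters), the CRE (TGACGTCA, in 2.23%) and the RE1 element (in 0.0705%) were in none of the 10 windows. The windows of Cacna1e and Cacna1i held none of the motifs searched.

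At Cacna1c, the pore of heart and smooth muscle that is also widespread in neurons, start 2 had an ATAC peak in all 4 lists, with −log10 p of 6.32 after Sham, 11.6 after SNA, 7.91 after Lam and 6.34 after DCA. It had an H3K9ac peak only in the DCA list (−log10 p 13.0, fold 4.48) and an H3K27ac peak in the SNA list (−log10 p 5.80) and the Lam list (−log10 p 9.07). Start 1 had ATAC peaks in the SNA and DCA lists, start 3 had them in all 4 lists, and neither had an acetylation peak. At Cacna1d, an L-type pore that opens at lower voltage and drives pacemaking, start 2 had ATAC peaks with −log10 p of 6.29 after Sham, 15.7 after SNA, 11.3 after Lam and 17.01 after DCA. Its H3K9ac peak was in the Lam list (−log10 p 4.75, fold 2.37) and in the DCA list (−log10 p 17.7, fold 5.52), and its H3K27ac peak in the Lam list (−log10 p 2.96). Start 1 of Cacna1d had no peak of any assay within 1 kb.

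**Figure D1:**
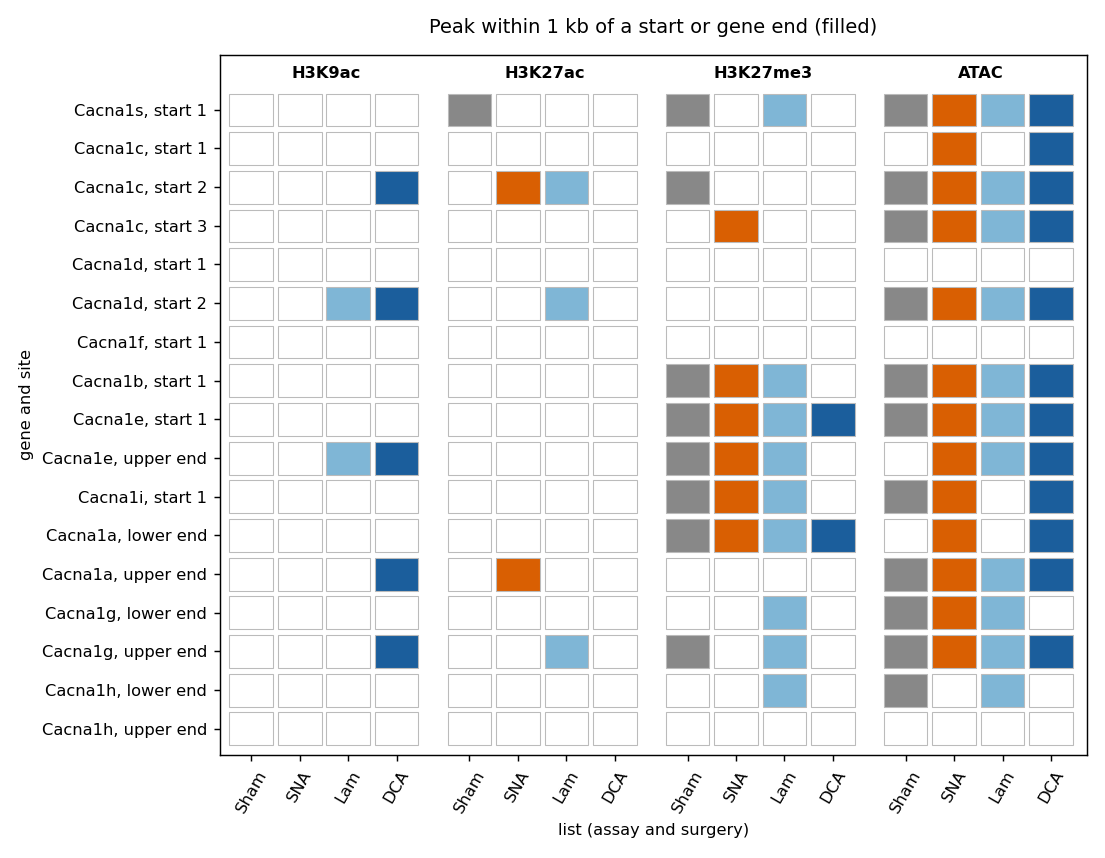
Grid of start sites and gene ends (rows, grouped by gene) against the 16 lists (columns, grouped by assay). Starts are shown for 7 genes, and gene ends for Cacna1a, Cacna1g, Cacna1h and, the upper one, Cacna1e. A filled square is a peak within 1 kb of the site, coloured by surgery. ATAC squares fill most rows, acetylation squares among the sites shown sit at start 2 of Cacna1c and Cacna1d, the start of Cacna1s and the upper ends of Cacna1a, Cacna1e and Cacna1g, and H3K27me3 squares sit mostly at Cacna1b, Cacna1e, Cacna1i and Cacna1a.

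The start of Cacna1b, the N-type pore, had ATAC peaks with −log10 p of 12.2 after Sham, 15.2 after SNA, 15.4 after Lam and 18.3 after DCA. It also had H3K27me3 peaks in the Sham, SNA and Lam lists (−log10 p 0.896, 0.920 and 0.712), and no acetylation peak. The starts in the promoter table for Cacna1e, the R-type pore, and Cacna1i, a T-type pore, likewise had ATAC and H3K27me3 peaks without acetylation. Cacna1i lacked the ATAC peak in the Lam list, and both genes had H3K27me3 in the Sham, SNA and Lam lists, Cacna1e also in DCA. Cacna1s had ATAC at its start in all 4 lists and an H3K27ac peak in the Sham list (−log10 p 5.55), beside an H3K9ac peak at its upper end in the DCA list (−log10 p 8.55), and Cacna1f had no peak at its start in any list. Over the 7 genes with a start in the table, an H3K9ac peak lay within 1 kb of a start for 0 genes after Sham, 0 after SNA, 1 after Lam and 2 after DCA, where 50.4%, 51.9%, 51.6% and 59.9% of the 17492 genes with starts had one. H3K27ac peaks lay there for 1 gene after Sham, 1 after SNA, 2 after Lam and 0 after DCA, against 40.5%, 52.1%, 51.5% and 43.6% of all genes. H3K27me3 peaks lay there for 5, 4, 4 and 1 genes in the same order, against 19.6%, 14.8%, 22.1% and 7.13%. ATAC peaks lay there for 6, 6, 5 and 6 genes, against 68.2%, 70.3%, 68.5% and 69.8%. The starts of the family were therefore accessible about as often as those of other genes and held acetylation in fewer cases. A listed H3K27me3 peak lay there in more cases, and 7 genes stand behind each share. These H3K27me3 peaks were weak, with folds of 1.01 to 1.32 and −log10 q of 0 to 0.0256. Such values do not set any of them apart from background, so the higher share counts listed peaks only.

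For Cacna1a, Cacna1g and Cacna1h the promoter table had no entry, and both ends of the gene were used, since the gene table does not say which end is the start. The upper end of Cacna1a, the P/Q-type pore, held the strongest ATAC peak of the family, in the SNA list, with ATAC −log10 p of 42.4 after Sham, 64.4 after SNA, 44.2 after Lam and 34.8 after DCA. It also had an H3K9ac peak in the DCA list (−log10 p 13.8) and an H3K27ac peak in the SNA list (−log10 p 5.93). The lower end of Cacna1a had weak H3K27me3 peaks in all 4 lists (−log10 p 0.862 after Sham, 0.755 after SNA, 0.661 after Lam and 0.632 after DCA). The upper end of Cacna1g, a T-type pore, had ATAC in all 4 lists (−log10 p 8.88 after Sham, 12.6 after SNA, 18.3 after Lam and 12.4 after DCA), H3K9ac in DCA (−log10 p 11.01) and H3K27ac in Lam (−log10 p 7.51). Cacna1e also had its only H3K9ac site at a gene end, the upper one, in the Lam list (−log10 p 4.54) and the DCA list (−log10 p 5.21). Cacna1e lies on the minus strand, so this end is upstream of its start in the promoter table. The DCA peak lay 158.7 kb upstream of that start, and the counts at starts above leave this site out. Both ends of Cacna1h lacked acetylation peaks.

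Along the gene bodies the family as a whole held many ATAC and H3K27me3 peaks per length, while acetylation depended on the surgery and on how the genes were weighted. ATAC peaks in the 10 windows, 2550.53 kb in all, numbered 329 after Sham, 378 after SNA, 389 after Lam and 379 after DCA, or 12.9, 14.8, 15.3 and 14.9 per 100 kb. The 2429 genes of at least 100 kb, a fairer reference because 6 of the 10 pore genes are that long, held 7.10, 8.22, 7.45 and 7.67 per 100 kb. H3K9ac peaks numbered 30, 46, 23 and 85 in the same order, or 1.18, 1.80, 0.902 and 3.33 per 100 kb, against 2.33, 3.75, 2.46 and 4.48 for the long genes. H3K27ac peaks numbered 37, 42, 54 and 32, or 1.45, 1.65, 2.12 and 1.25 per 100 kb, against 1.97, 3.86, 3.29 and 2.10. H3K27me3 peaks numbered 187, 232, 350 and 129, or 7.33, 9.10, 13.7 and 5.06 per 100 kb, against 4.33, 4.85, 5.55 and 3.07. Pooled in this way, the longest genes weigh most, and the pore genes held more ATAC and H3K27me3 peaks and fewer acetylation peaks than long genes after all 4 surgeries. With each gene counted alike, the medians over the 10 genes were again above those of long genes for ATAC and H3K27me3, but for acetylation they were on either side. For H3K9ac the pore gene medians were 0.893, 0.700, 0.522 and 4.22 per 100 kb, against 1.18, 1.66, 1.43 and 2.37 for long genes, so that only the DCA median was higher. For H3K27ac they were 0.972, 0.097, 2.20 and 1.73, against 1.39, 1.91, 1.87 and 1.28, so that the Lam and DCA medians were higher.

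**Figure D2:**
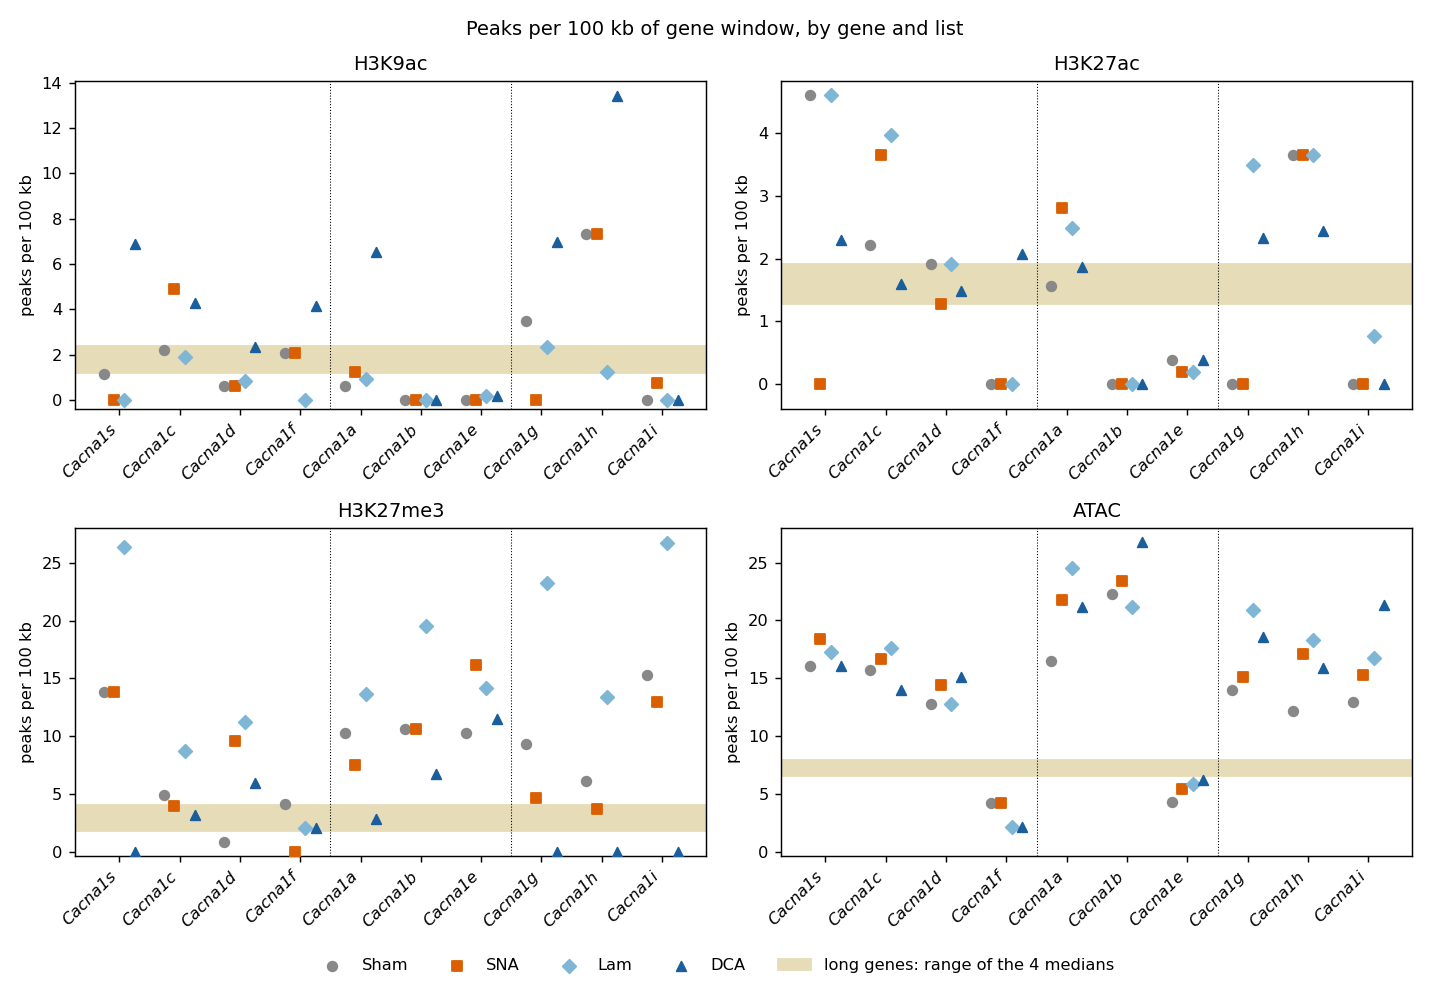
Peaks per 100 kb of gene window (vertical axis) for each gene (horizontal axis; L-type, P/Q-, N- and R-type and T-type genes from left to right, split by dotted lines), 1 panel per assay and 1 symbol per surgery. The band spans the 4 medians of genes of at least 100 kb. Cacna1b and Cacna1a sit highest for ATAC, Cacna1b at 0 for both acetylation marks, and the DCA symbols of Cacna1g, Cacna1h, Cacna1i and Cacna1s sit at 0 for H3K27me3.

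Among the L-type genes, Cacna1c (chr6:118587240-119197384) held 99, 105, 111 and 88 ATAC peaks, and it had the most acetylated sites of the family by number. It held 14, 31, 12 and 27 H3K9ac peaks and 14, 23, 25 and 10 H3K27ac peaks. Its strongest H3K9ac and ATAC peaks, at chr6:119174779-119176058 and chr6:119174957-119175859, lay where the Cacna1c window overlaps Dcp1b, an mRNA decapping gene. Cacna1d (chr14:30039941-30491156) held 60, 68, 60 and 71 ATAC peaks, 3, 3, 4 and 11 H3K9ac peaks and 9, 6, 9 and 7 H3K27ac peaks. Its strongest H3K9ac peak, in the Lam list (chr14:30479652-30480436, −log10 p 23.9), lay within Dcp1a, another decapping gene. Leaving out peaks within 1 kb of another gene's end moved none of the 12 family ratios beyond its interval.

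Cacna1s (chr1:136052806-136119822) held 14, 16, 15 and 14 ATAC peaks, 1, 0, 0 and 6 H3K9ac peaks and 4, 0, 4 and 2 H3K27ac peaks. Cacna1f (chrX:7607103-7635196), the shortest gene of the family at 28.1 kb, had 2, 2, 1 and 1 ATAC peaks, the lowest ATAC density at a mean of 3.12 per 100 kb. Its strongest H3K9ac, H3K27ac and ATAC peaks lay in the flank within the body of its neighbour Ccdc22. In the window of Cacna1f, then, the signal recorded was mostly at a neighbouring gene.

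Among the transmitter release pores, Cacna1b (chr2:24603860-24763200) had the highest ATAC density, with 40, 42, 38 and 48 peaks and a mean of 23.4 per 100 kb, and no H3K9ac or H3K27ac peak in any list. It held 19, 19, 35 and 12 H3K27me3 peaks. Cacna1a (chr8:84338631-84640251) held 53, 70, 79 and 68 ATAC peaks, a mean of 21.0 per 100 kb, 2, 4, 3 and 21 H3K9ac peaks and 5, 9, 8 and 6 H3K27ac peaks. Cacna1e (chr1:154390806-154884785) had the reverse make-up, with a low ATAC mean of 5.45 per 100 kb, 22, 28, 30 and 32 peaks, and the most H3K27me3 peaks by number, 53, 83, 73 and 59. It held 0, 0, 1 and 1 H3K9ac peaks and 2, 1, 1 and 2 H3K27ac peaks. Of its 118 H3K27me3 regions merged over the lists, 14 were in all 4, out of 22 such regions in the whole family. Its strongest ATAC peak, chr1:154461402-154461952 (−log10 p 21.5 in SNA), was in all 4 lists.

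Among the T-type genes, Cacna1h (chr17:25374285-25436334) had the highest acetylation density. It held 6, 6, 1 and 11 H3K9ac peaks, a mean of 7.31 per 100 kb, and 3, 3, 3 and 2 H3K27ac peaks, a mean of 3.35 per 100 kb, beside 10, 14, 15 and 13 ATAC peaks. Its strongest H3K27ac peak, chr17:25390834-25391202 (−log10 p 13.8 in DCA), was in the DCA and Sham lists only. Cacna1g (chr11:94408391-94474400) held 12, 13, 18 and 16 ATAC peaks, 3, 0, 2 and 6 H3K9ac peaks and 0, 0, 3 and 2 H3K27ac peaks. Cacna1i (chr15:80287238-80398292) held 17, 20, 22 and 28 ATAC peaks, and a single H3K9ac peak (SNA) and a single H3K27ac peak (Lam). It had the highest mean H3K27me3 density, 13.7 per 100 kb, close to Cacna1s at 13.5 and Cacna1e at 13.0. With 1 list per surgery, neighbours in these orders cannot be separated by an error.

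After sciatic axotomy the strong H3K27ac sites of the pore genes in Sham were mostly missing from the SNA list, while most of them were present after both spinal surgeries. A gene was compared between 2 lists when they held at least 4 of its peaks together, and it was called when the numbers differed at least 2-fold. Of the 5 genes compared for H3K27ac between SNA and Sham, 0 were called higher and 1, Cacna1s, lower, where 39.5% of all 9993 genes compared were called higher and 4.41% lower. The summed number went from 37 to 42 (log2 ratio 0.18, interval −0.49 to 0.86), beside 0.79 for the whole list and 0.97 for long genes. With each list cut to its strongest 43803 peaks, the size of the Sham list, the family held 37 peaks in Sham and 17 in SNA (log2 ratio −1.12), and 3 of 5 genes, Cacna1d, Cacna1h and Cacna1s, were called lower, where 13.4% of all genes were. Of these, Cacna1h was also called lower in Lam than in Sham at equal list sizes.

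The strong sites, with −log10 q of at least 5, numbered 19 in Sham. Of these, 2 were overlapped by an SNA peak (10.5%, interval 1.30% to 33.1%), 14 by a Lam peak (73.7%) and 13 by a DCA peak (68.4%). Over the whole Sham list the shares of strong peaks were 51.4% for SNA, 76.9% for Lam and 70.1% for DCA. For the strong Sham peaks of long genes they were 43.3%, 74.1% and 67.2%. More than 1 kb from any gene end or start, 1 of 18 pore gene sites was overlapped in SNA (5.56%, interval 0.141% to 27.3%), 13 in Lam and 12 in DCA, against 35.8%, 70.3% and 65.4% of the 17279 such peaks in the list. Of the strong Lam sites 10 of 26 were overlapped in SNA (38.5%, interval 20.2% to 59.4%), against 69.7% of the Lam list and 64.9% for long genes. Of the strong DCA sites 5 of 14 were (35.7%, interval 12.8% to 64.9%), and that interval holds the 59.8% of the DCA list and the 50.6% for long genes. The 8 strong SNA sites were overlapped near the rates of the SNA list, 4 of 8 in Sham (50%; list 60.7%), 7 of 8 in Lam (87.5%; 85.7%) and 6 of 8 in DCA (75%; 65.8%). This count of strong sites was chosen after the values had been seen.

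**Figure D3:**
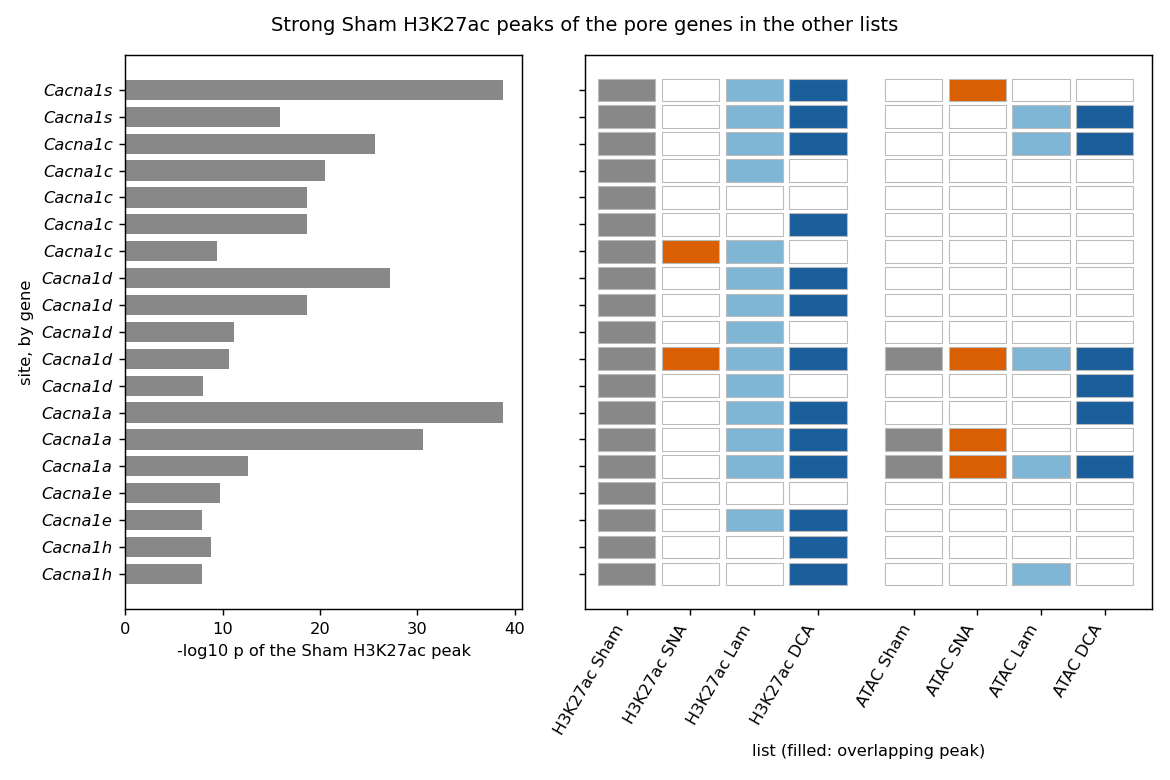
The 19 H3K27ac peaks with −log10 q of at least 5 in the Sham list, 1 row each, ordered by gene. Bars give −log10 p in Sham, and filled squares mark an overlapping peak in the H3K27ac and ATAC lists of each surgery. The SNA column of H3K27ac is filled in 2 rows, 1 of Cacna1c and 1 of Cacna1d, against 14 for Lam and 13 for DCA.

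By gene, the Sham sites present in SNA were 0 of 3 at Cacna1a, 1 of 5 at Cacna1c, 1 of 5 at Cacna1d, 0 of 2 at Cacna1e, 0 of 2 at Cacna1h and 0 of 2 at Cacna1s. Of the 2 Cacna1h sites, 0 were in Lam and 2 in DCA, while each other gene had at least 1 site in Lam. The strongest of the 19 Sham sites were chr8:84515732-84516360 in Cacna1a and chr1:136061656-136062397 in Cacna1s, each with −log10 p of 38.8 and fold 12.02 in Sham, and each was also in the Lam and DCA lists. Next came chr8:84502042-84502861 in Cacna1a (−log10 p 30.6), chr14:30049709-30050138 in Cacna1d (27.2) and chr6:118859667-118860154 in Cacna1c (25.6), which were likewise in Lam and DCA and not in SNA. The site kept at Cacna1d, chr14:30479650-30480273, overlapped Dcp1a. At the 19 sites, ATAC peaks overlapped 3 after Sham, 4 after SNA, 5 after Lam and 6 after DCA, H3K9ac peaks 1, 1, 1 and 2, and H3K27me3 peaks 0 in every list. Of all 37 Sham peaks of H3K27ac in the pore genes 29.7% had a Sham ATAC peak (interval 15.9% to 47.0%), against 39.8% of the list. Of all Sham H3K27ac peaks of the pore genes, weak ones included, 26 of 37 had no SNA peak (70.3%), against 42.6% of the list.

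In the other direction, 32 of 42 SNA peaks of H3K27ac had no Sham peak (76.2%, interval 60.5% to 87.9%), against 65.3% of the SNA list. The strongest of these was again in the overlap of Cacna1c with Dcp1b. In DCA against Lam the family held 32 and 54 H3K27ac peaks (log2 ratio −0.75, interval −1.43 to −0.10), with −0.53 for the whole list. Of 6 genes compared, 0 were called higher and Cacna1c and Cacna1s lower, against 3.26% and 25% of all genes, and with equal list sizes 0 were lower (10.4% of all genes) and the ratio was 0.05. Of the DCA peaks, 43.8% had no Lam peak (27.9% of the list). Lam against Sham, where neither had an axotomy, gave 54 and 37 peaks (0.55, interval −0.08 to 1.19; −0.35 with equal list sizes), 0 of 5 genes called in either direction (30.6% of genes higher, 3.05% lower) and 63.0% of Lam peaks without a Sham peak (54.4% of the list).

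After spinal axotomy the pore genes held more H3K9ac peaks than after laminectomy. The numbers were 85 in DCA and 23 in Lam (log2 ratio 1.89, interval 1.21 to 2.62), against 0.82 for the whole list and 0.87 for long genes. All 6 genes compared were called higher in DCA (Cacna1a, Cacna1c, Cacna1d, Cacna1g, Cacna1h and Cacna1s) and 0 lower, where 39.1% of the 11389 genes compared were higher and 2.45% lower. Cacna1a held 3 peaks in Lam and 21 in DCA, Cacna1c 12 and 27, Cacna1h 1 and 11, Cacna1d 4 and 11, Cacna1g 2 and 6, and Cacna1s 0 and 6. The strongest of the Cacna1a peaks, chr8:84600208-84601678 (−log10 p 17.7, fold 5.52), lay in the gene body, in a region present in all 4 lists.

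The DCA list was the largest of the H3K9ac lists and had the highest median −log10 p, 6.998 against 5.19 in Lam. With equal list sizes the family held 32 and 23 peaks (0.48), and 2 of 5 genes, Cacna1a and Cacna1h, were still called higher, where 11.4% of all genes were. Among peaks with −log10 q of at least 5, 2 of 3 genes, Cacna1a and Cacna1c, were called higher, where 87% of all genes were. Of the DCA peaks, 68 of 85 had no Lam peak (80%, interval 69.9% to 87.9%), against 61.8% of the list. The strongest of them was the peak at start 2 of Cacna1c described above. Of the DCA peaks with −log10 q of at least 5, 10 of 25 were overlapped in Lam (40%, interval 21.1% to 61.3%), against 59.7% of the list. More than 1 kb from any gene end or start, 6 of 16 were (37.5%, interval 15.2% to 64.6%), against 47.9%. Both intervals hold the share of the list.

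After sciatic axotomy H3K9ac went with the list. The family held 46 peaks in SNA and 30 in Sham (log2 ratio 0.62, interval −0.08 to 1.33; whole list 0.57). Of 4 genes compared, Cacna1a and Cacna1c were called higher and 0 lower, against 24% and 2.3% of all genes, and with equal list sizes 0 of 3 were higher (8.29% of all genes) and the ratio was −0.15. Cacna1c alone held 31 of the 46 SNA peaks, and without it the ratio was −0.09. Of the SNA peaks, 60.9% had no Sham peak (49.5% of the list). For Lam against Sham the numbers were 23 and 30 (−0.38, interval −1.23 to 0.45; whole list 0.0096). With q of at most 0.05 they were 20 and 14, which turned the direction (0.51). At that threshold the whole lists also held more peaks in Lam, 41527 against 28258 in Sham. Among all peaks, 0 of 5 genes were called higher and Cacna1h lower (13.2% and 12.7% of all genes), and 52.2% of Lam peaks had no Sham peak (40.8% of the list).

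**Figure D4:**
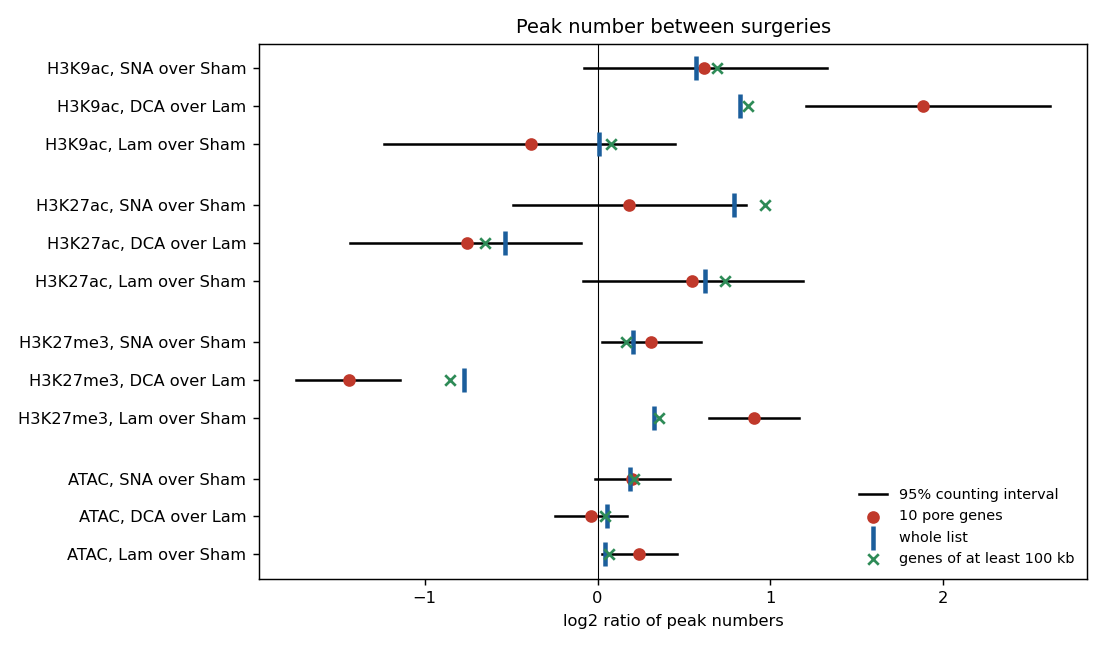
Log2 ratio of peak numbers (horizontal axis) for each assay and comparison (rows). Red points are the 10 pore genes together with their 95% counting interval, blue bars the whole list and green crosses genes of at least 100 kb. H3K9ac in DCA over Lam (1.89 against 0.82) and H3K27me3 in DCA over Lam (−1.44 against −0.78) lie farthest from their whole lists.

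In the lists as deposited, which differ in size, H3K27me3 peaks of the pore genes were fewest after spinal axotomy. The family held 129 in DCA and 350 in Lam (log2 ratio −1.44, interval −1.74 to −1.14). The ratio was −0.78 for the whole list, −0.85 for long genes and −1.11 for the windows of all genes. Of 9 genes compared, 7 were called lower in DCA (Cacna1a, Cacna1b, Cacna1c, Cacna1g, Cacna1h, Cacna1i and Cacna1s) and 0 higher, where 57.7% of 9968 genes were lower and 4.12% higher. Cacna1g held 20 peaks in Lam and 0 in DCA, Cacna1h 11 and 0, Cacna1i 35 and 0, and Cacna1s 23 and 0. The 3 T-type genes together held 33, 24, 66 and 0 peaks. Cacna1e held 73 in Lam and 59 in DCA, and without it the family ratio was −1.98. Over all genes, an H3K27me3 peak lay at a gene end for 12.3% in DCA and 33.4% in Lam. Marker genes with such a peak were also fewer in DCA than in Lam for most cell types. They numbered 5 against 10 of 12 for sensory neurons and 0 against 5 of 10 for satellite glia and Schwann cells. For skeletal muscle they were 3 against 7 of 8, and for photoreceptors 2 against 5 of 6. Macrophage markers gave 1 against 2 of 6, endothelial markers 0 against 2 of 4 and fibroblast markers 1 against 1 of 4. The part of these cell types in the result was not tested.

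With equal list sizes the ratio was −0.50, and 5 of 9 genes were called lower (Cacna1a, Cacna1g, Cacna1h, Cacna1i and Cacna1s), where 35.8% of all genes were. At equal sizes the DCA number was no longer the lowest but close to those of Sham and SNA, and the Lam number stood above all of them. Cacna1b then held 8 peaks in Lam and 12 in DCA, and Cacna1e 39 and 59. The DCA list was also the shortest, and 52.5% of all genes and 17.5% of long genes had no peak in it. H3K27me3 peaks were weak in every list. Only 6 of the 187 in Sham, and 0 in the other lists, had a q of 0.05 or less, and the median fold over each whole list was between 1.11 and 1.19. Of the DCA peaks, 55.0% had no Lam peak, against 61.6% of the list.

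Lam against Sham, the pair without an axotomy, differed too, with 350 and 187 peaks (log2 ratio 0.90, interval 0.64 to 1.17; whole list 0.33). Cacna1d, Cacna1g and Cacna1h were called higher and 0 lower among 9 genes, against 32% and 7.93% of all genes, and 67.7% of Lam peaks had no Sham peak (68.9% of the list). With equal list sizes the ratio was 0.53 and 2 of 9 genes, Cacna1d and Cacna1g, were higher (26.8% of all genes). A difference of this size between the controls stands beside the one between DCA and Lam, and the 2 comparisons share the Lam list. For SNA against Sham the numbers were 232 and 187 (0.31, interval 0.03 to 0.60; whole list 0.20), with Cacna1d called higher and Cacna1g lower among 9 genes (19.3% and 18.3% of all genes), and 65.1% of SNA peaks had no Sham peak (70.5% of the list). With equal list sizes this ratio was −0.06.

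Cacna1d in the Sham list of H3K27me3 stood apart from its other lists. It held 4 peaks there, against 45 after SNA, 53 after Lam and 28 after DCA. In Sham no H3K27me3 peak lay between chr14:30029218 and chr14:30394341, a stretch of 365.1 kb that held 31 peaks after SNA, 38 after Lam and 16 after DCA. The 4 Sham peaks had −log10 p of 5.51 to 7.58 with folds of only 1.03 to 1.25, where the Sham list had a median −log10 p of 0.885 at a median fold of 1.11. The ATAC lists showed no such gap, with 53, 61, 56 and 64 peaks in that stretch. Without Cacna1d the family ratios were 0.03 for SNA over Sham and 0.70 for Lam over Sham. Without Cacna1e, with 53 peaks in Sham and 83 in SNA, the ratio of SNA over Sham was 0.15. Cacna1d and Cacna1e were the only 2 genes with more peaks in SNA than in Sham, while 6 had fewer and 2 had equal numbers. The excess in SNA over Sham therefore lay in these 2 genes. What lay behind the gap was not tested.

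**Figure D5:**
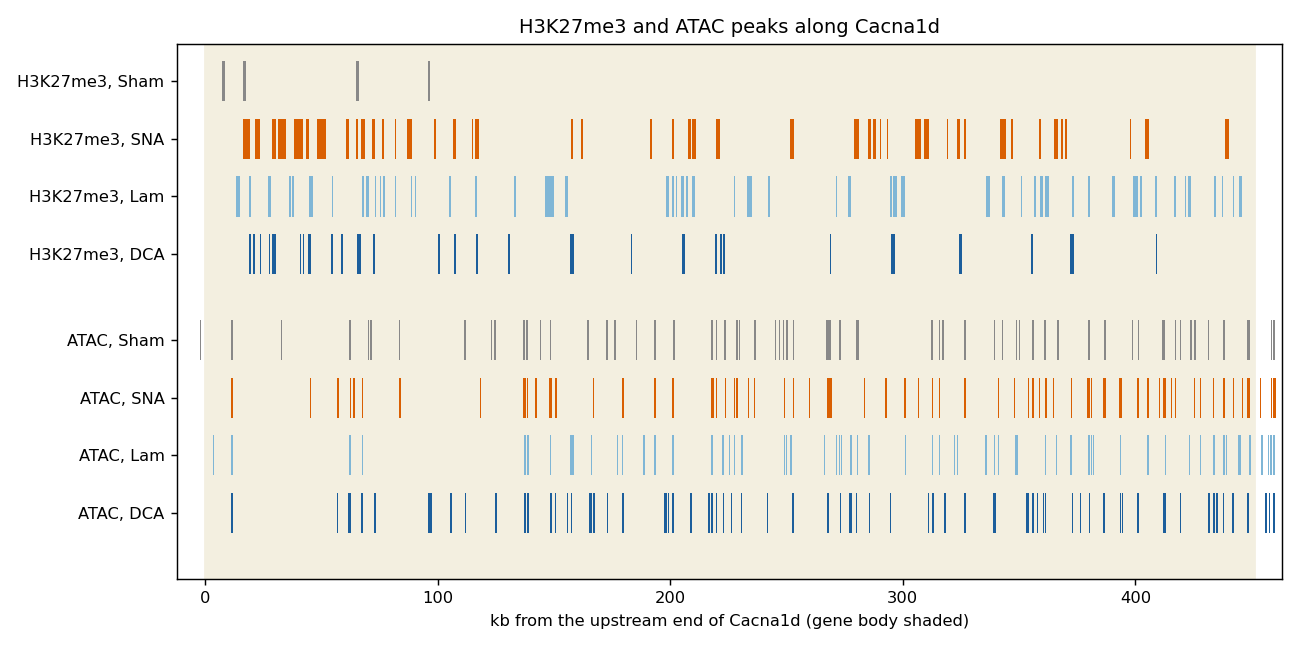
Peaks along Cacna1d in the 4 H3K27me3 and the 4 ATAC lists (rows), by distance in kb from the upstream end of the gene, with the gene body shaded. Peaks narrower than 0.6 kb are drawn 0.6 kb wide. The Sham row of H3K27me3 holds 4 peaks in the first part of the gene and none beyond, and the other rows hold peaks along the whole length.

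Accessibility of the pore genes differed little in peak number. ATAC peaks numbered 378 in SNA and 329 in Sham (log2 ratio 0.20; whole list 0.19; −0.06 with equal list sizes), 379 in DCA and 389 in Lam (−0.04; whole list 0.06), and 389 in Lam and 329 in Sham (0.24; whole list 0.04). No gene was called in any of the 3 comparisons, with 10, 9 and 9 genes compared. The shares of all genes called higher and lower were 13% and 4.14% for SNA, 8.37% and 6.53% for DCA, and 10.6% and 6.71% for Lam. Of the SNA peaks 56.9% had no Sham peak, of the DCA peaks 56.5% had no Lam peak and of the Lam peaks 63.0% had no Sham peak, close to 59.6%, 57.9% and 59.4% of the lists.

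Strong ATAC peaks differed more. With −log10 q of at least 5 the family held 23 after Sham, 63 after SNA, 34 after Lam and 36 after DCA. The log2 ratio of SNA over Sham was 1.45, against 0.73 for the whole list at the same threshold. Cacna1b held 1, 13, 6 and 2 such peaks, Cacna1a 5, 16, 9 and 9, and Cacna1c 4, 13, 5 and 9. Of 6 genes compared, 4 were called higher in SNA (Cacna1a, Cacna1b, Cacna1c and Cacna1g), where 31.5% of 7564 genes were. The strongest SNA peak of ATAC without a Sham peak was chr2:24713267-24713967 in Cacna1b (−log10 p 15.5, fold 3.28), which was also in the Lam and DCA lists.

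Open sites of the pore genes seldom carried acetylation. An H3K9ac peak of the same surgery overlapped 3.34% of their ATAC peaks after Sham, 4.76% after SNA, 2.57% after Lam and 10.3% after DCA, against 14.1%, 16.9%, 13.0% and 20.6% over the whole lists. H3K27ac overlapped 3.04%, 3.97%, 5.66% and 3.43%, against 10.7%, 15.1%, 15.8% and 10.8%. H3K27me3 overlapped 16.1%, 14.8%, 29.8% and 5.80%, against 15.8%, 13.1%, 23.1% and 5.37%. Of the ATAC peaks of the pore genes, only 4.37% (Lam) to 5.01% (DCA) lay at the gene's own start or end. The whole lists, which include the peaks at gene starts, were not matched for position or gene length. The lower shares with acetylation can therefore not be called particular to the family, and the same holds for the shares of regions that follow. Of the regions merged over the 4 surgeries, those found in all 4 lists were 10 of 117 for H3K9ac (8.55%; 18.8% of all regions), 5 of 102 for H3K27ac (4.90%; 13.6%), 22 of 527 for H3K27me3 (4.17%; 3.82%) and 78 of 814 for ATAC (9.58%; 10.0%). Regions found only in both controls numbered 5 for H3K27ac (4.90%; 2.55% of all regions) and 39 for H3K27me3 (7.40%; 4.34%), and those found only in both injuries 0 (2.32% of all regions) and 10 (1.90%; 2.18%). For H3K9ac 0 regions were only in both controls (0.366% of all regions) and 4 only in both injuries (3.42%; 8.52%), and for ATAC 23 (2.83%; 2.62%) and 25 (3.07%; 4.26%). The acetylated regions in all 4 lists lay in Cacna1c, Cacna1d, Cacna1a and, for H3K9ac only, Cacna1h. Those of Cacna1d lay at Dcp1a. Regions of H3K9ac and H3K27ac that were each in all 4 lists overlapped in the body of Cacna1a (H3K9ac at chr8:84600122-84601921 and H3K27ac at chr8:84599931-84601035), and also in Cacna1c, there including the overlap with Dcp1b, and in Cacna1d.

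The partners of the pore were counted by the same rule. Of 16 accessory subunit genes, which set the trafficking and gating of the pore, 6 were compared for H3K9ac in DCA against Lam and 4 were called higher and 0 lower. For H3K27me3 in that comparison 15 were compared and 9 were lower, and for ATAC 0 of 13 were called. Cacng4 was called higher for H3K9ac after both injuries (1, 3, 0 and 5 peaks). Cacnb3, Cacng1 and Cacng4 were called lower for H3K27me3 after both, with 4, 2, 5 and 0 peaks at Cacnb3, a subunit that carries the pore to the membrane. Cacnb1 had the highest density of the list for H3K9ac, H3K27ac and ATAC, with 24.7 ATAC peaks per 100 kb.

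Among 11 genes of calcium release and store-operated entry, 4 of 9 were called higher and 0 lower for H3K9ac in DCA. Stim1, the calcium sensor of the endoplasmic reticulum, was called higher for H3K9ac after both injuries (3, 8, 6 and 13 peaks), as was Orai3, a store-operated pore (2, 6, 1 and 5). Ryr1, the calcium release channel of skeletal muscle, was called lower for H3K27me3 after both (22, 9, 35 and 0). Among 11 genes of the release machinery beside the channel, 4 of 8 were higher and 1 lower for H3K9ac in DCA. Among 8 genes of calmodulin and its kinases, 2 of 7 were higher and 0 lower for H3K9ac in DCA, and Camk2a was called lower for H3K27me3 after both (9, 1, 15 and 0). These shares stand beside the 39.1% of all genes called higher for H3K9ac and the 57.7% called lower for H3K27me3 in DCA. In SNA the shares of all genes were 24% and 18.3%. How many of all genes were called after both injuries was not counted. The partner genes named for such calls, accessory subunits included, are therefore a listing and do not set these genes apart.

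Over the 16 lists, the genes whose peak numbers followed the summed numbers of the family most closely were St8sia1, a ganglioside synthase, at a Pearson r of 0.97, Ntrk3, the neurotrophin receptor of touch and position sensing neurons, at 0.96, and Muc5b, an airway mucin, at 0.96. They were found among 9679 genes with at least 50 peaks. All points share the same lists and their sizes, and the 4 assays differ in peak number, so such values are a description.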

How the data were processed

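Peaks in and around 10 calcium channel pore genes were counted in 16 deposited peak lists, 1 per assay and surgery, each made by the authors from all samples of a condition. Per the submitters' processing notes the build was mm10, and the aligner and peak caller are not given in the sources used here. Each deposited line carries a whole-number score, which was not used, and a fold, the authors' linear ratio over background. The authors' −log10 p and −log10 q belong to a peak within its own list, where they served for ranking and filtering. Repeated ATAC intervals were merged to the strongest summit. Gene positions and promoter sequences came from RefSeq (GRCm38.p6), where 61.0% of starts had an ATAC Sham peak within 100 bp and 6.77% after a shift of 10000 bp. Of the 10 genes, 10 were found in the gene table and 7 in the promoter table. Peaks overlapping by at least 1 bp were counted as matched, and a gene was called with at least 4 peaks in 2 lists together and a difference of at least 2-fold. Counts were made with Python 3.11.15, numpy 2.4.6 and pandas, and intervals are exact 95% intervals. The counting was tested on simulated lists. All 10 genes were named, with the strongest peak of each gene and assay and the strongest unmatched peak of each comparison. Other genes were named at the extremes of 4 pathway lists or when called after both injuries, and 1 such gene is not reported here. The members and lists were chosen with earlier results of these data known. Alternatives were equal list sizes, stricter q, gene body alone, covered bases and a reciprocal overlap of 50%. The input samples have no list of their own and were not analysed here.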

Additional observations from a re-analysis of the deposited data

How the results depend on the processing

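Of the 12 ratios of summed peak number, 12 stayed within their counting interval with the gene body alone and 12 without peaks within 1 kb of another gene's end. With equal list sizes 9 moved. H3K9ac gave −0.15 (SNA over Sham) and 0.48 (DCA over Lam), H3K27ac −1.12 (SNA over Sham), 0.049 (DCA over Lam) and −0.35 (Lam over Sham), H3K27me3 −0.058, −0.50 and 0.53 in the same order, and ATAC −0.063 (SNA over Sham). Keeping q of at most 0.05 gave 1.48 for H3K9ac in SNA over Sham and 0.51 in Lam over Sham. The whole H3K9ac lists then held 28258 peaks in Sham, 65458 in SNA and 41527 in Lam. Keeping −log10 q of at least 5 gave 2.64 for H3K9ac in DCA over Lam (whole list 2.59) and −1.25 for H3K27ac in SNA over Sham (whole list −0.03). For ATAC it gave 1.45 in SNA over Sham (whole list 0.73) and 0.56 in Lam over Sham (whole list −0.02). At these thresholds no ratio could be formed where a list held 0 peaks of the family, as for H3K27me3. Covered bases gave −0.063, −1.96 and 0.49 for H3K27me3. Leaving out 1 gene moved 2 ratios, H3K9ac in SNA over Sham to −0.093 without Cacna1c and H3K27me3 in DCA over Lam to −1.98 without Cacna1e. A reciprocal overlap of 50% raised the shares without a match to 76.1% (SNA) and 89.4% (DCA) for H3K9ac, 88.1% (SNA) for H3K27ac, 90.9%, 86.0% and 90.9% for H3K27me3 and 69.6%, 73.4% and 74.3% for ATAC, the last 2 sets in the order SNA, DCA and Lam over Sham.

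Counts of called genes under 2 settings, and the ratios without a gene or without neighbours' peaks, were added after seeing the data. In brackets stand the shares of all genes called. With equal list sizes the genes called higher for H3K9ac numbered 0 of 3 in SNA (8.29%) and 2 of 5 in DCA (11.4%). Those called lower for H3K27ac numbered 3 of 5 in SNA (13.4%), 0 of 4 in DCA (10.4%) and 1 of 5, Cacna1h, in Lam over Sham (9.69%). For H3K27me3 2 of 9 were called lower in SNA (25.1%). With −log10 q of at least 5, 2 of 3 were higher for H3K9ac in DCA (87%) and 2 of 4 for H3K27ac in Lam over Sham (32.2%). For ATAC 4 of 6 were higher in SNA (31.5%), 1 of 5 higher in Lam over Sham (10.1%) and 1 of 5 lower in DCA (4.1%), the last 2 being Cacna1b. The cause of these differences was not tested. No paired analysis was possible because each list pools all replicates of its condition, and for the same reason no replicate could be left out. Depth is unknown, which limits every statement about a peak that is missing.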
